A study of Mus musculus with 9 samples.

Results

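The 10 genes described here are Aspm, Mcph1, Cdk5rap2, Wdr62, Cenpj, Stil, Cep135, Cep152, Cep63 and Knl1, a group known from human genetics because loss of any one of them can cause primary microcephaly. The list was drawn up by symbol and sets no threshold on measured values, although earlier results of these data were known when it was made. Each symbol matched 1 Ensembl identifier among the 57010 genes of the counts table. All 10 also passed the filter on low counts (more than 10 reads in each of the 9 embryos), as did 13680 genes in all, which are the genes tested.

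The libraries are poly(A) RNA-seq of cortical tissue dissected at E12.5 from 9 single mouse embryos, with 3 embryos per genotype and 1 library per embryo. Ctrl embryos are labelled WT, and whether they carry Cre or floxed alleles is not given in the sources used here. In cKO embryos both alleles of Cnot3, which encodes a subunit of the CCR4-NOT deadenylase complex that shortens mRNA poly(A) tails, are floxed and deleted by Emx1-Cre. The dcKO embryos carry floxed Trp53, the gene for p53, in addition to floxed Cnot3. Emx1-Cre acts in radial glia of the dorsal telencephalon and in their progeny, so that meninges, vessels and blood cells in the dissected tissue keep the floxed alleles. Sex was not given, and the 3 embryos of a genotype are different animals.

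Total counts per embryo ranged from 21193798 to 45073349, and the members received between 161 reads (Cep152) and 7356 reads (Aspm) in 1 embryo. Cnot3, the targeted gene, was at 98.2 to 117.3 CPM (read counts per library size, scaled by TMM factors) in Ctrl, at 14.6 to 17.3 in cKO, and at 7.33, 48.2 and 19.0 in dcKO replicates 1, 2 and 3. Trp53 was at 215 to 254 CPM in Ctrl, at 164 to 167 in cKO, and at 15.1, 110.4 and 20.6 in the same dcKO replicates. dcKO replicate 2 therefore stood apart from the other two, with more reads of both deleted genes and a summed level of 7.97 CPM over 6 subpallial and interneuron markers that did not exceed 0.489 CPM in the other 8 embryos. Its part in the dcKO results was not tested, and the members' dcKO differences and the counts of the companion lists are also given without it. Counts of calls in dcKO are given without replicate 3 as well. In bulk tissue, fewer cells of a type and less RNA per cell cannot be told apart.

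Most of these proteins build the centrosome, the pair of centrioles and surrounding material that organizes the mitotic spindle. In radial glia, the neural progenitors that line the ventricle, centrioles are duplicated once per cell cycle and the spindle poles help set the plane and duration of mitosis. When centrioles are lost or mitosis is prolonged, cells can signal through USP28 and 53BP1 to p53, a route known as mitotic surveillance. Each member has a place in this machinery. STIL, CPAP (the product of Cenpj), CEP135, CEP152 and CEP63 act in centriole duplication, CDK5RAP2 in the pericentriolar material, ASPM and WDR62 at spindle poles, MCPH1 in chromosome condensation and the DNA damage response, and KNL1 at the outer kinetochore.

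Promoter windows of 300 bases are shown for 5 members. Cep135, Cep63 and Wdr62 are the members for which no cKO embryo overlapped a Ctrl embryo. Aspm and Knl1 belong, with Cenpj and Stil, to a group that varied together over the embryos. Each window comes from RefSeq on GRCm38.p6, holds 250 bases before and 50 after the annotated start, and is written 5′ to 3′ on the strand of the gene. RefSeq windows were at hand for 9 of the 10 members, all except Mcph1. Capitals mark matches on either strand to an E2F motif (TTTNNCGC), a CHR motif (TTTGAA) or a CCAAT box (CCAAT). The windows are chr5:76588449-76588748 on the plus strand for Cep135, chr9:102626075-102626374 on the minus strand for Cep63, chr7:30280372-30280671 on the minus strand for Wdr62, chr1:139454523-139454822 on the plus strand for Aspm and chr2:119046869-119047168 on the plus strand for Knl1.
Cep135: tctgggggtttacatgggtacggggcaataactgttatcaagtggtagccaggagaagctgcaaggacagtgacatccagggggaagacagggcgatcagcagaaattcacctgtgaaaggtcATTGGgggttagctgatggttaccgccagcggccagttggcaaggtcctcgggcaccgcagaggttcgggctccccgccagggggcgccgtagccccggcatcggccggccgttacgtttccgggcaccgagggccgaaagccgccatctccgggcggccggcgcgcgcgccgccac
Cep63: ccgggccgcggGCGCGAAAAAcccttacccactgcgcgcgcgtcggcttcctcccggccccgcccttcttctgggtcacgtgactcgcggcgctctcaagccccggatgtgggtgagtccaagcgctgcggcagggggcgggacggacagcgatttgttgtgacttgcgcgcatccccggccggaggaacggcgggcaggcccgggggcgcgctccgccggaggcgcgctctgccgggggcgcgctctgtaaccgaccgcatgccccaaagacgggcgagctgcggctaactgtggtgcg
Wdr62: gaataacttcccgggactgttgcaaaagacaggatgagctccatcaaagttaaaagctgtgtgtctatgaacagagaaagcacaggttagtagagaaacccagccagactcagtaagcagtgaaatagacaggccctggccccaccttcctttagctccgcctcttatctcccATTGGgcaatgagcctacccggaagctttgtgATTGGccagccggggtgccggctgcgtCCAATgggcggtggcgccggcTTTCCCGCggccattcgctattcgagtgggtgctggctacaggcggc
Aspm: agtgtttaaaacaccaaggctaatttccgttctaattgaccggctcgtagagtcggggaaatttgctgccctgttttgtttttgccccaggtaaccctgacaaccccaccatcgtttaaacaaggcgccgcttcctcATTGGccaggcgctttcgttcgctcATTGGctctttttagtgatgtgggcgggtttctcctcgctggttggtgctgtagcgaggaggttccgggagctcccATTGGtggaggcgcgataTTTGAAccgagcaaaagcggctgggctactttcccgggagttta
Knl1: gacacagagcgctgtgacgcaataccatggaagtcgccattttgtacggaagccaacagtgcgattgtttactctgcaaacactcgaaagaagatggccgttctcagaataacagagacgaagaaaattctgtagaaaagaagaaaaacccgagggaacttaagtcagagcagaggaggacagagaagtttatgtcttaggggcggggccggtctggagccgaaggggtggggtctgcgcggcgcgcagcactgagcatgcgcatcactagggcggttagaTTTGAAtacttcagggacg

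The CHR motif, which is known from promoters of G2 and mitotic genes, matched in the windows of Aspm, Knl1 and Cdk5rap2. These are 3 of 9 members, beside 17.9% of 32851 windows of all genes. Counted from 0 at the first base after the 250 upstream bases, the matches began at 6 in Aspm, 31 in Knl1 and 26 in Cdk5rap2, all in the direction of the gene. The windows of Cenpj and Stil, which varied together with Aspm and Knl1, held no CHR match. The E2F motif matched in Cep63, Wdr62 and Cep152, 3 of 9 members, beside 5.17% of all windows. In Cep63 the E2F matches were a pair that overlapped each other near the far upstream end of the window, whereas in Wdr62 the match began at 3. CCAAT boxes were found in Aspm, Cep152, Stil, Cep135 and Wdr62, 5 of 9 members, beside 37.4% of all windows. No 2 different motifs overlapped in the windows printed. GC content ranged from 51.7% (Knl1) to 73.0% (Cep63). Members are counted as genes with a match in any of their windows, whereas the percentages are shares of windows. Some genes, such as Wdr62, have multiple windows, so the shares are not the same measure. A match says only that these letters are present in the window.

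The members also share a property that the list did not use, which is a long coding sequence. Median coding length was 4302 bases, from 2274 (Cep63) to 9366 (Aspm), beside a median of 1446 bases over 12101 tested protein-coding genes, where the members' median stood at percentile 93.4. Their transcripts had a median GC content of 45.8%, from 37.7% in Knl1 to 56.3% in Wdr62, beside 49.5% over protein-coding genes tested. GC content at the third codon position had a median of 52.3% in the members and 60.4% in those genes. Coding length and third-position GC come from the longest coding sequence of each gene, and transcript GC from its longest transcript, in GENCODE M21 on GRCm38.

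In control cortex the members differed widely in level once divided by exon length. This is the length of all annotated exons of a gene merged, 9598 bases for Cep63 beside a longest transcript of 5861. For Wdr62 these are 5743 and 4768 bases, so the order of neighbouring genes depends on this choice of length. Cdk5rap2 was at 9.75 ± 0.83 CPM per kb (SD, n = 3), Aspm at 9.21 ± 1.26 and Stil at 8.25 ± 1.24, a top set whose values did not differ beyond their spread. Cenpj (6.59 ± 0.33), Knl1 (6.57 ± 0.86) and Wdr62 (5.93 ± 0.68 CPM per kb) followed, again within the spread of one another. Mcph1 (3.37 ± 0.42) and Cep63 (3.02 ± 0.25 CPM per kb) overlapped below them. The lowest were Cep135 at 2.14 ± 0.05 and Cep152 at 1.74 ± 0.33 CPM per kb, whose ranges lay close without touching. Of the centriole duplication factors, Cep63, Cep135 and Cep152 thus sat at the low end of the list and Stil and Cenpj in its upper part.

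**Figure D1:**
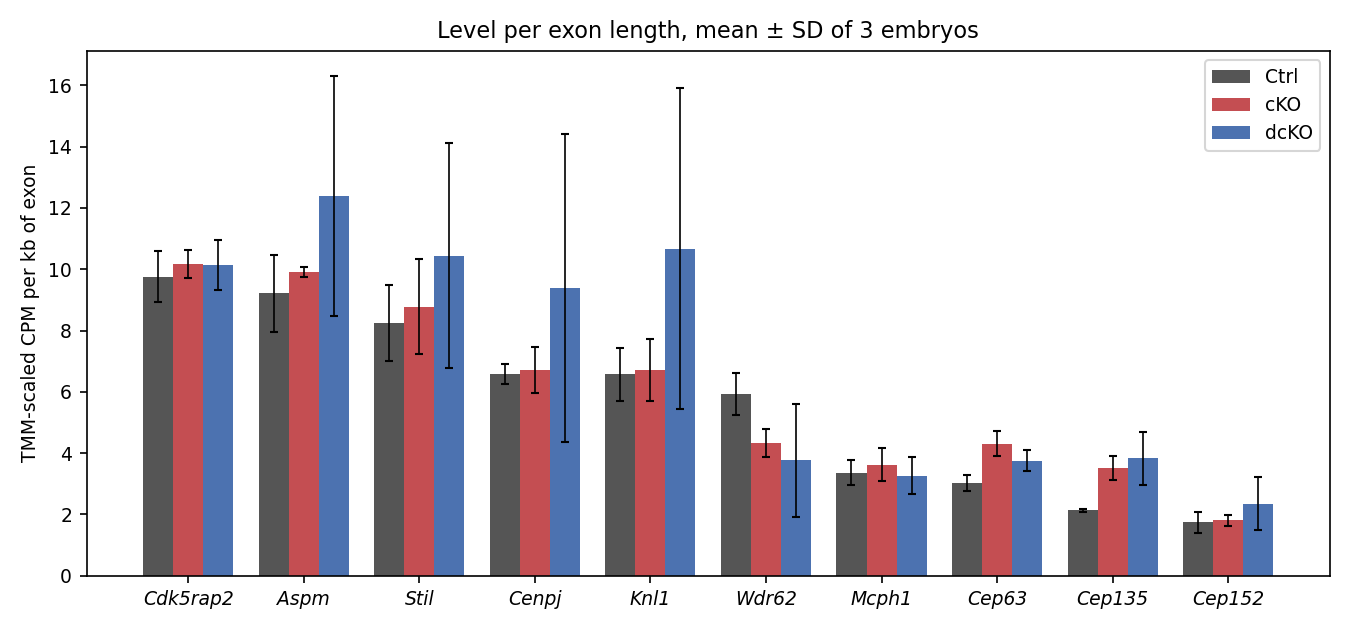
Level of each gene per kb of exon (vertical axis, TMM-scaled CPM per kb) in Ctrl, cKO and dcKO, ordered by the Ctrl level, with bars for the mean and error bars for the SD of 3 embryos. Cdk5rap2, at 9.75 in Ctrl, is the highest in Ctrl and Cep152, at 1.74, the lowest, and the error bars of Cenpj and Knl1 are widest in dcKO.

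In the mutants the order changed around Cep135, Cep63 and Wdr62. In cKO, Cep135 reached 3.51 ± 0.40 CPM per kb, beside Mcph1 at 3.63 ± 0.55. By the same merged exon length, Cep63 was at 4.31 ± 0.41 and Wdr62 at 4.33 ± 0.45. In dcKO, Aspm (12.4 ± 3.92 CPM per kb), Knl1 (10.7 ± 5.24), Stil (10.4 ± 3.67), Cdk5rap2 (10.1 ± 0.81) and Cenpj (9.38 ± 5.04) could not be ordered, because the dcKO embryos differed widely in all of these but Cdk5rap2.

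After removal of Cnot3 alone, 7 of the 10 members overlapped the control embryos. With edgeR's quasi-likelihood test on all 9 embryos, 0 of 10 members passed a Benjamini-Hochberg adjusted p of 0.05 in cKO against Ctrl, where 0.0146% of all genes tested did. At an unadjusted p under 0.05 there were 2, Cep135 and Cep63, beside 27.0% of all genes. DESeq2, the tool named by the study, called the same 2 members higher in cKO, beside 16.7% of all genes. edgeR on only the 6 Ctrl and cKO embryos called 3, with Wdr62 lower in addition, beside 47.2% of all genes. The count of members was thus near or below the share of all genes at every rule. The median log2 fold change of the members was 0.07, beside 0.01 over all genes tested, 9 were above 0 and 1 below, and 0 changed more than 2-fold. That median was 0.19 without Ctrl replicate 3, -0.00076 without Ctrl replicate 2 and -0.10 with a correction of each library for GC content, so no direction is given for the list in cKO.

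Cep135, a structural protein of the centriole wall and cartwheel, had the largest difference. The gene (ENSMUSG00000036403.16, chromosome 5 from 76588698 to 76646466, plus strand, GRCm38) was at 15.5, 15.0 and 15.6 CPM in the Ctrl embryos, at 22.3, 27.9 and 25.4 in cKO, and at 34.7, 23.2 and 24.6 in dcKO. Every mutant embryo lay above every control, by at least 1.45 times the control mean, and the controls were nearly equal. In cKO the difference on the log2 scale was 0.71 (SE 0.22, edgeR adjusted p = 0.0835), and DESeq2 gave an adjusted p of 0.0214. edgeR on the 6 embryos compared gave the same 0.71 with an adjusted p of 0.0023. In dcKO it was 0.84 (SE 0.22, edgeR adjusted p = 0.0581), with a DESeq2 adjusted p of 0.0069. On only the 6 Ctrl and dcKO embryos it was not called, at 0.80 with edgeR (SE 0.27, adjusted p = 0.210) and 0.81 with DESeq2 (adjusted p = 0.0701). The exact two-sided permutation test of the 3 embryos against 3 gave p = 0.1 in both mutants, the smallest value this design allows. A correction of each library for GC content left Cep135 higher, at 0.51 in cKO and 0.58 in dcKO (edgeR adjusted p = 0.0880 and 0.0935).

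Cep63 acts with Cep152 to recruit the duplication machinery to the mother centriole. The gene (ENSMUSG00000032534.19, chromosome 9 from 102584588 to 102626534, minus strand) was at 27.8, 27.4 and 31.8 CPM in Ctrl, at 43.9, 36.9 and 43.3 in cKO, and at 38.2, 37.5 and 32.4 in dcKO. Again no mutant embryo overlapped a control, although the lowest dcKO embryo, replicate 3, was close to the highest control. The log2 fold change was 0.51 in cKO (SE 0.18, edgeR adjusted p = 0.107, DESeq2 adjusted p = 0.0400) and 0.31 in dcKO (SE 0.18, edgeR adjusted p = 0.263, DESeq2 adjusted p = 0.263). With the GC correction these became 0.25 and -0.13, so the direction in dcKO is not kept by that setting. The upstream end of Cep63 overlaps Anapc13 on the opposite strand, and the strand setting of the counting is not given in the sources used here.

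Wdr62, a scaffold protein of spindle poles, was the member that differed downward. The gene (ENSMUSG00000037020.17, chromosome 7 from 30240138 to 30280419, minus strand) was at 37.8, 34.5 and 30.0 CPM in Ctrl and at 25.3, 27.2 and 22.1 in cKO, with no overlap. In dcKO replicates 1, 2 and 3 it was at 14.0, 17.1 and 33.7 CPM, so that replicate 3 lay within the controls while the other two had about 0.41 and 0.51 of the control mean. The log2 fold change was -0.46 in cKO (SE 0.31, edgeR adjusted p = 0.377, DESeq2 adjusted p = 0.345, and 0.0183 with edgeR on the 6 embryos compared). In dcKO it was -0.66 (SE 0.31, edgeR adjusted p = 0.191). The GC correction brought these to -0.17 and -0.19. Wdr62 has the most GC-rich transcript of the list, and its start overlaps Thap8 on the opposite strand.

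Of the members, then, 2 were higher in every cKO embryo than in every Ctrl embryo, where 29.2% of all genes tested were, and 1 was lower in every cKO embryo, where 28.0% were. Both shares lie below those of all genes. None of the remaining 7 members separated cKO from Ctrl. Summed markers of red blood cells were at 5122 to 7404 CPM in Ctrl and at 6551 to 10674 in cKO. Summed markers of meninges and fibroblasts were at 750.5 to 829.6 CPM in Ctrl and 426 to 670.2 in cKO, a sum made mostly of collagen reads. Their mean log2 ratio to the control mean overlapped, at -0.04, 0.07 and -0.03 in Ctrl and -0.56, 0.03 and -0.79 in cKO, and DESeq2 called none of the 5 markers. Of the markers of dorsal telencephalon, Emx1 was at 119.95, 69.4 and 43.8 CPM in Ctrl and at 20.5, 20.4 and 23.7 in cKO (-1.85, DESeq2 adjusted p = 0.0298), and Lhx2 at 854, 654 and 467 in Ctrl and at 275, 277 and 317 in cKO (-1.19, 0.0016). The mean log2 ratio of 8 radial glia markers to the control mean was 0.15, 0.02 and -0.17 in the Ctrl embryos. In cKO it was -0.34, -0.27 and -0.42, without overlap. Hes5 had the largest difference of the 8 (-1.83, DESeq2 adjusted p = 0.0054) and weighs most in this mean. Its level was 37.8, 31.0 and 22.0 CPM in Ctrl and 6.75, 7.85 and 10.9 in cKO. Nes was at -0.68 (0.0413), Hes1 at -0.58 (0.216), Sox2 at -0.29 (0.46) and Pax6 at -0.18 (0.438). Vim (0.45, 0.165), Fabp7 (0.28, 0.643) and Slc1a3 (0.07, 0.934) were above 0, and the mean without Hes5 was not taken. Of 5 markers of intermediate progenitors, Gadd45g, at 2.19 to 24.4 CPM in these embryos, was at -2.56 (DESeq2 adjusted p = 0.0025), while Eomes was at 0.11 and Neurog2, Insm1 and Btg2 between -0.36 and -0.33, with DESeq2 adjusted p-values of 0.239 or more. The part of these cell types in the members' levels was not tested. Labels give another number to each embryo, and 2 Ctrl and cKO pairs share it. Within both pairs the log2 differences of Cep135 were 0.85 and 0.76, of Cep63 0.41 and 0.66, and of Wdr62 -0.47 and -0.64. Their sign was fixed in advance, because no cKO embryo overlapped a Ctrl embryo in these genes.

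**Figure D2:**
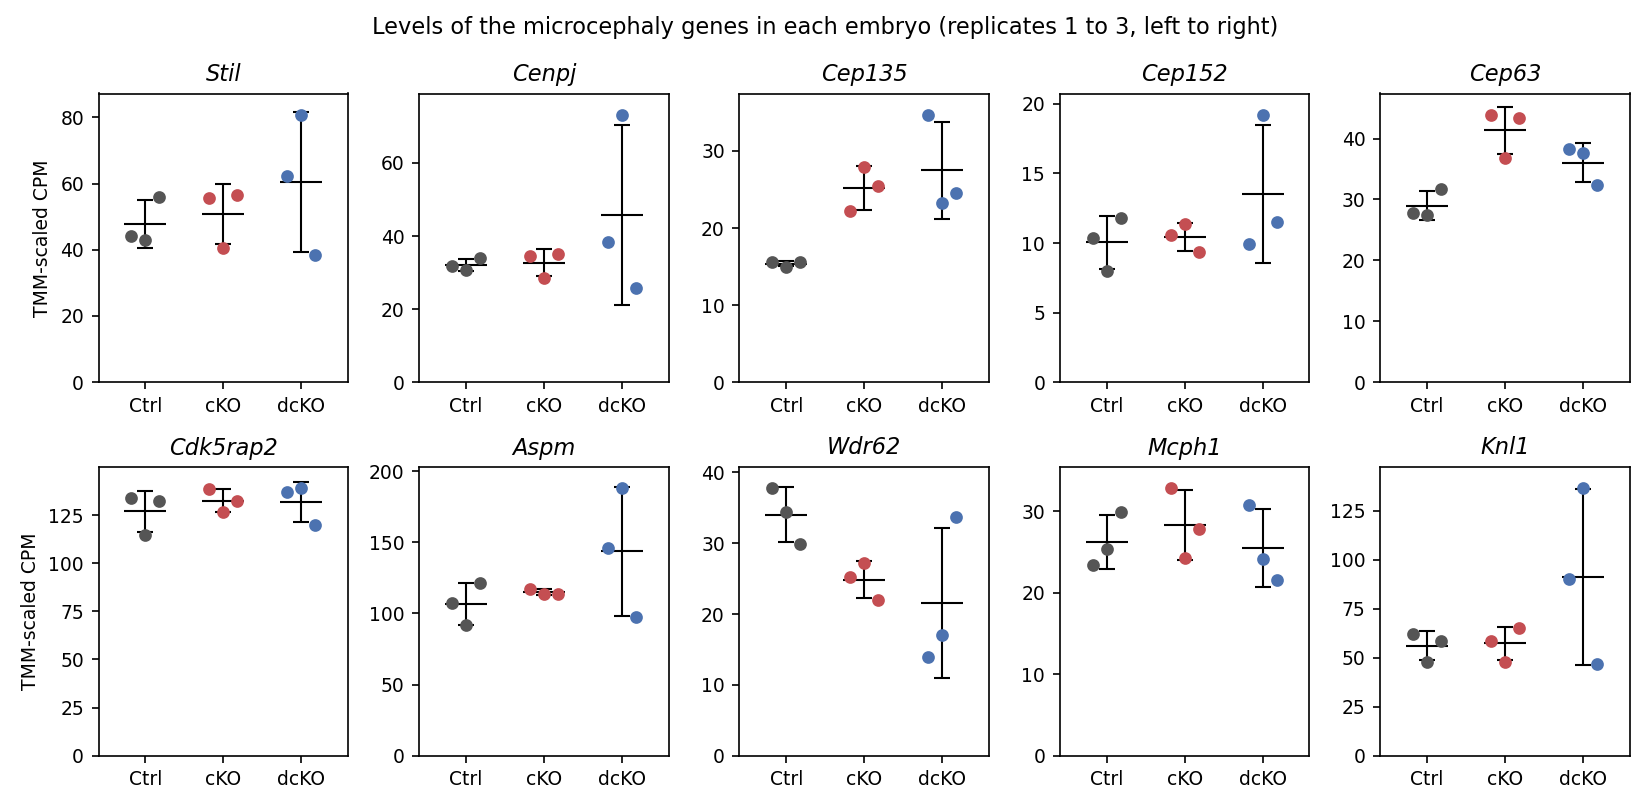
Level of each gene (vertical axes from 0, TMM-scaled CPM) in the 3 embryos of each genotype, as points for replicates 1 to 3, with the mean and SD of 3 embryos in black. For Cep135 the Ctrl points lie between 15.0 and 15.6 and all 6 mutant points above 22, and for Aspm, Stil, Cenpj and Knl1 dcKO replicate 2 is the highest point and replicate 3 the lowest of the dcKO points.

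The other factors of centriole duplication overlapped the controls in cKO. Stil, whose product starts cartwheel assembly with PLK4 and SAS-6, was at 44.3, 43.1 and 56.1 CPM in Ctrl and at 55.6, 40.5 and 56.5 in cKO (log2 fold change 0.09, SE 0.27). Cenpj, which sets centriole length, was at 31.8, 30.6 and 33.9 CPM in Ctrl and at 34.5, 28.6 and 35.2 in cKO (0.03, SE 0.33). Cep152, a scaffold that recruits PLK4, was at 10.4, 7.98 and 11.8 CPM in Ctrl and at 10.5, 11.3 and 9.35 in cKO (0.05, SE 0.31). The edgeR adjusted p-values of these genes were 0.860, 0.963 and 0.928, and the cKO embryos overlapped the controls in each.

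Cdk5rap2, which anchors the γ-tubulin ring complex in the pericentriolar material, was at 133.9, 114.5 and 132 CPM in Ctrl, at 139, 127 and 132 in cKO and at 137, 139 and 119.6 in dcKO. It was the most even member, with a log2 fold change of 0.06 in cKO and 0.05 in dcKO (SE 0.15 in both, edgeR adjusted p = 0.818 and 0.823). Mcph1, a regulator of chromosome condensation, was at 23.5, 25.4 and 29.9 CPM in Ctrl, at 32.8, 24.3 and 27.8 in cKO and at 30.8, 24.2 and 21.6 in dcKO. The fitted difference on the log2 scale was 0.11 in cKO and -0.04 in dcKO (SE 0.22 in both, edgeR adjusted p = 0.788 and 0.911). Both genes overlapped between all genotypes. Mcph1 overlaps Angpt2 on the opposite strand.

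Aspm, which focuses microtubule minus ends at spindle poles, was at 107, 91.9 and 121.1 CPM in Ctrl and at 117.2, 114 and 114 in cKO (0.11, SE 0.23, edgeR adjusted p = 0.796). Knl1, which carries the docking sites of the spindle checkpoint at the kinetochore, was at 62.1, 47.9 and 58.5 CPM in Ctrl and at 58.7, 48.0 and 65.0 in cKO (0.03, SE 0.32, edgeR adjusted p = 0.963). The cKO values of both lay within or near the range of the controls. With the GC correction the cKO differences of Aspm, Knl1, Stil, Cenpj, Cep152, Cdk5rap2 and Mcph1 turned to values between -0.21 and -0.0032, so no direction is given for them.

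**Figure D3:**
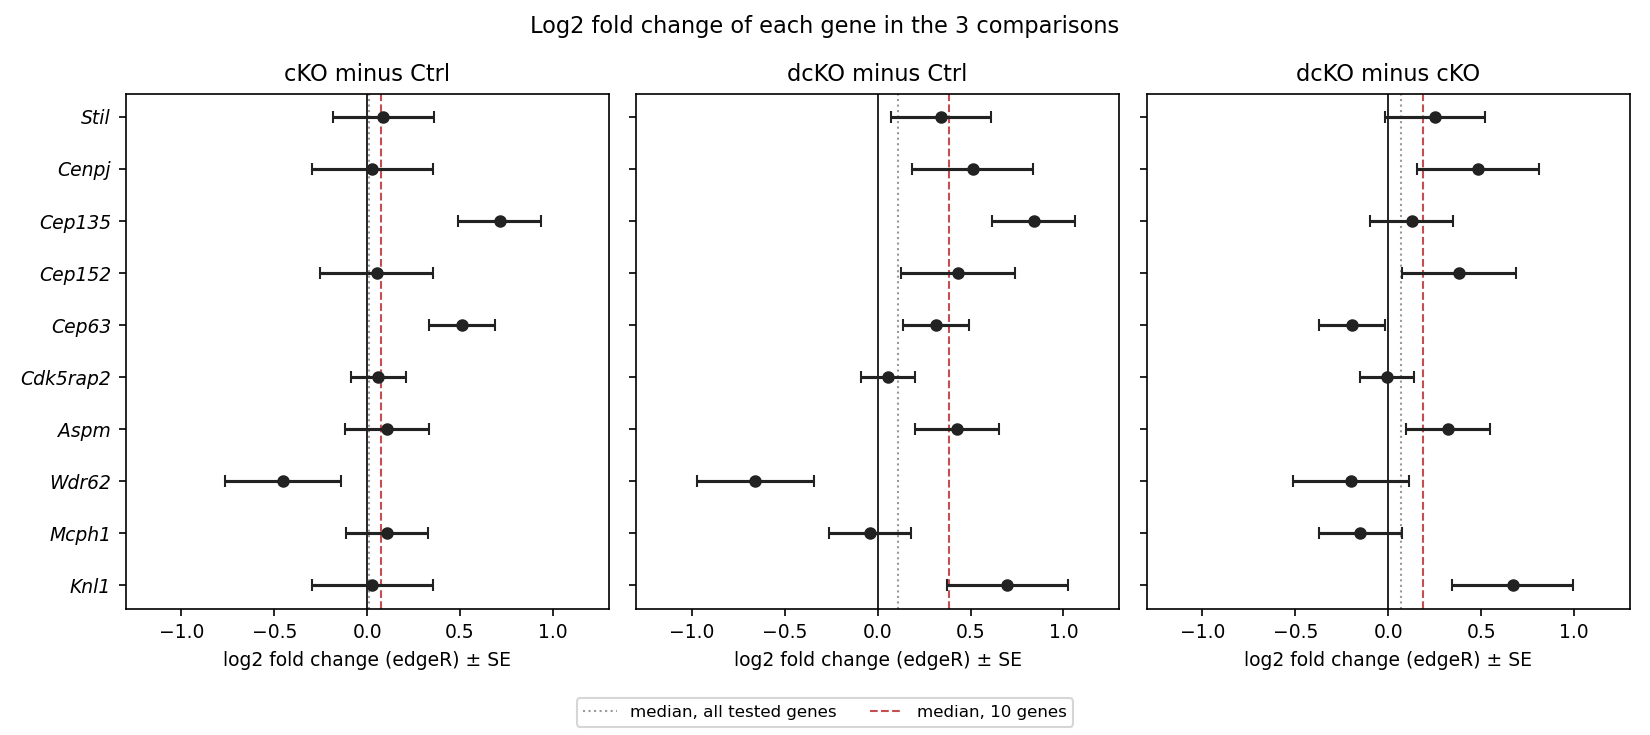
Log2 fold change from edgeR (horizontal axis) of each gene in cKO minus Ctrl, dcKO minus Ctrl and dcKO minus cKO, with points for the estimate, bars for its SE, a dotted line for the median of all genes tested and a dashed line for the median of the 10 genes. Cep135 lies at 0.71 in cKO and 0.84 in dcKO, and Wdr62 at -0.46 and -0.66.

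In dcKO most members differed more between the embryos of the genotype than in Ctrl or cKO. The exceptions were Cdk5rap2, with a coefficient of variation of 8.02% in dcKO and 8.49% in Ctrl, and Cep63, with 8.82% in dcKO and 9.40% in cKO. The coefficient of variation over 3 embryos reached 53.7% in dcKO (Cenpj), beside at most 19.1% in Ctrl (Cep152) and 17.7% in cKO (Stil). The comparison uses the 3 Ctrl embryos that also served for cKO. 0 of 10 members passed an adjusted p of 0.05 against Ctrl with edgeR on all 9 embryos, where 0% of all genes did, and 0 with edgeR on the 6 embryos compared, where 0% of all genes did. At an unadjusted p under 0.05 there was 1 member, Cep135, beside 29.2% of all genes. DESeq2 called 1, Cep135, beside 17.7% of all genes. In dcKO, 2 members (Cep135 and Cep63) were higher in every dcKO embryo than in every control, beside 15.6% of all genes, and 0 were lower in every dcKO embryo, beside 11.2%. The median log2 fold change of the members was 0.38, beside 0.11 over all genes tested, with 8 above 0 and 2 below. Without dcKO replicate 2 that median was 0.08, without dcKO replicate 3 it was 0.56, and with the GC correction it was -0.0023.

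The spread had a pattern shared by Aspm, Stil, Cenpj and Knl1. In dcKO replicates 1, 2 and 3, Knl1 was at 90.0, 136 and 46.9 CPM. Cenpj was at 38.2, 73.2 and 25.8, and Aspm at 146, 187.9 and 97.2 CPM. Stil was at 62.4, 80.8 and 38.4 CPM. In each of these genes replicate 2 was the highest of all 9 embryos, at 1.70 times the control mean for Stil up to 2.44 times for Knl1, replicate 1 came next among the dcKO embryos, and replicate 3 was the lowest of the 3, at 0.81 to 0.92 times the control mean. Cep152 was at 9.91, 19.2 and 11.5 CPM, so that for this gene replicate 2 alone stood out.

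The log2 fold changes in dcKO were 0.70 for Knl1 (SE 0.33, edgeR adjusted p = 0.184), 0.51 for Cenpj (SE 0.33, adjusted p = 0.316), 0.43 for Aspm (SE 0.23, adjusted p = 0.234), 0.43 for Cep152 (SE 0.31, adjusted p = 0.366) and 0.34 for Stil (SE 0.27, adjusted p = 0.419). None of these differences passed the test against the spread between replicates. For Knl1, Cenpj, Aspm and Stil, but not for Cep152 (0.53, adjusted p = 0.171), this turned on dcKO replicate 3. Without it, edgeR called 6 members, namely Knl1 (1.01, adjusted p = 0.0025), Cenpj (0.79, 0.0191), Aspm (0.64, 0.0059), Stil (0.58, 0.0314), Cep135 (0.91, 0.0050) and Wdr62 (-1.13, 0.0012), while 6733 of 13776 genes passed. Without dcKO replicate 2, edgeR called 1, Cep135 (0.94, adjusted p = 0.0177), while 2497 of 13893 genes passed. The others then stood at 0.28 for Knl1, -0.0066 for Cenpj, 0.18 for Aspm, 0.07 for Stil, 0.09 for Cep152, 0.28 for Cep63, -0.52 for Wdr62, 0.01 for Cdk5rap2 and -0.0081 for Mcph1, with edgeR adjusted p-values of 0.284 or more. With the GC correction Knl1 was at 0.05, Cenpj at 0.12, Aspm at 0.02, Stil at -0.05 and Cep152 at 0.47, so only Cep152 of these kept its size.

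Taking the 10 genes of each embryo as log2 ratios to the control mean, the median was 0.02, -0.11 and 0.11 in Ctrl replicates 1 to 3, 0.14, -0.05 and 0.12 in cKO, and 0.32, 0.68 and -0.10 in dcKO. Over all genes tested the same median lay between -0.01 and 0.06 in the 9 embryos. The number of members above the control mean was 8, 8 and 3 of 10 in the dcKO replicates. Over 10 markers of cycling cells (Mki67, Top2a, Ccnb1, Cdk1, Pcna, Mcm2, Mcm5, Birc5, Ccna2 and Cdc20) the summed level in dcKO was 4736, 5372 and 3759 CPM, beside 3800 to 4301 in Ctrl and 3763 to 4343 in cKO. The sum was carried by abundant genes such as Top2a (1380, 1670 and 815 CPM in the dcKO replicates) and Mki67 (687, 882 and 381). Replicate 3 was the lowest dcKO embryo for 7 of the 10 markers and the highest for Mcm2 (186, 253 and 397), Mcm5 (255, 235 and 502) and Cdc20 (160.1, 118 and 296), and the mean log2 ratio of the list to the control mean was 0.03, 0.16 and -0.08. The part of the cycling cells in the members' levels was not tested. Summed radial glia markers were at 2795 to 3199 CPM in Ctrl, 2736 to 3300 in cKO and 2838 to 3159 in dcKO, and their mean log2 ratio was -0.49, 0.19 and -0.16 in the dcKO embryos. Markers of intermediate progenitors summed to 391 to 509 CPM in Ctrl, 354 to 433 in cKO and 333 to 666 in dcKO. Endothelial markers were at 168 to 222, 165 to 225 and 106 to 115, those of meninges and fibroblasts at 297 to 498 in dcKO, and those of microglia and macrophages at 27.0 to 34.1, 28.2 to 58.5 and 10.8 to 24.3. Summed markers of neurons ranged from 903 CPM (dcKO replicate 1) to 1835 CPM (Ctrl replicate 1) and those of red blood cells from 3550 to 5154 CPM in dcKO.

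**Figure D4:**
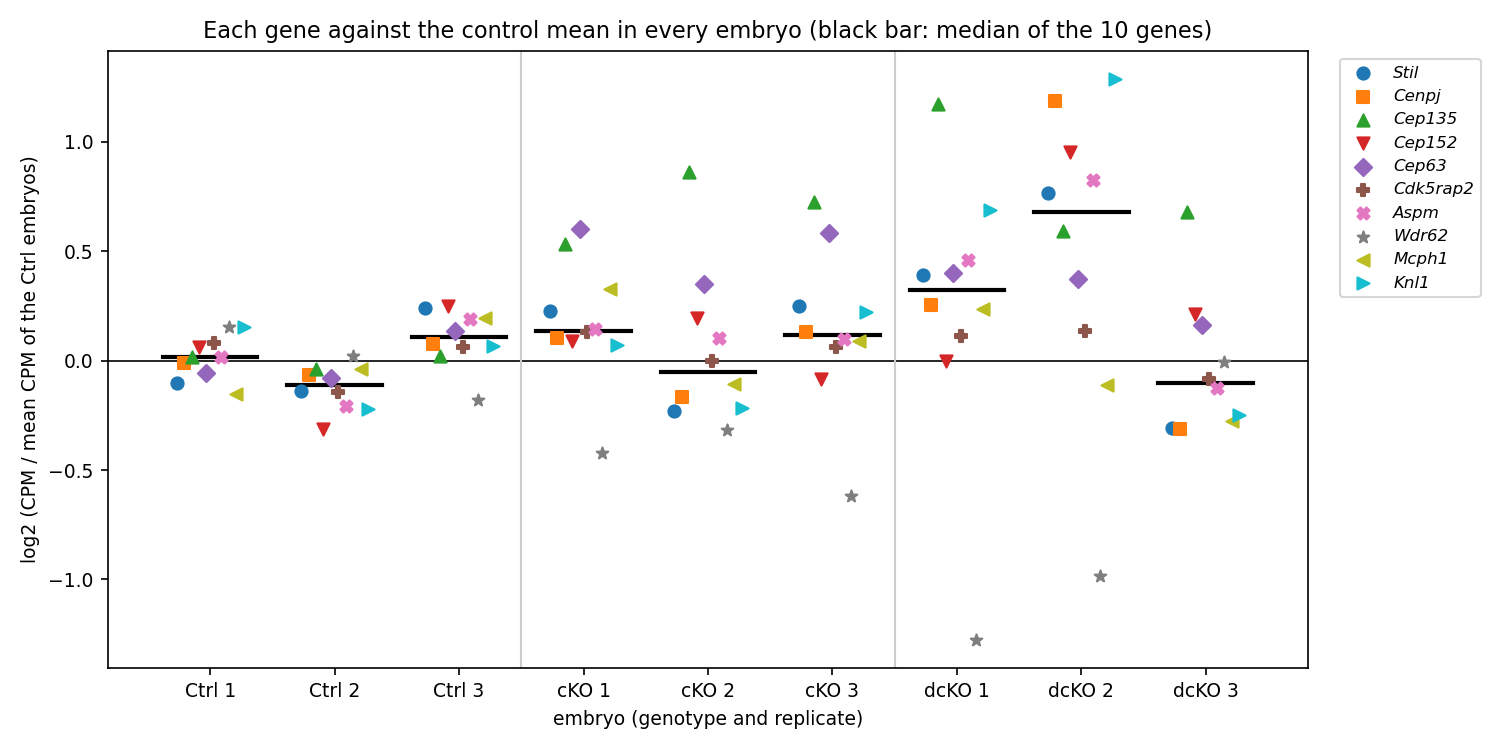
Log2 ratio of each gene to the mean CPM of the Ctrl embryos (vertical axis) in each of the 9 embryos (horizontal axis), with a symbol per gene and a black bar for the median of the 10 genes. The bars stand at 0.32, 0.68 and -0.10 in dcKO replicates 1 to 3, and Wdr62 lies lowest in all 3 cKO embryos and in dcKO replicates 1 and 2.

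The comparison of dcKO with cKO asks what removing Trp53 adds. 0 of 10 members passed an adjusted p of 0.05 with edgeR, beside 0.0146% of all genes, 0 had an unadjusted p under 0.05, beside 4.42%, and DESeq2 called 0, beside 0.431%. No member was higher in every dcKO than in every cKO embryo, beside 2.62% of all genes, and none was lower in every dcKO embryo, beside 3.63%. The largest differences were 0.67 in Knl1 (SE 0.32) and 0.48 in Cenpj (SE 0.33), both with an edgeR adjusted p of 0.889. Cep135 (0.13, SE 0.22), Cep63 (-0.20, SE 0.18) and Wdr62 (-0.20, SE 0.31) had differences close to their errors. Without dcKO replicate 3, edgeR called 4 members between dcKO and cKO, namely Knl1 (0.98, adjusted p = 0.0145), Cenpj (0.77, 0.0395), Aspm (0.54, 0.0293) and Wdr62 (-0.68, 0.0298), while 3628 of 13776 genes passed. Without dcKO replicate 2 it called 0, and the median difference of the members was -0.02 in place of 0.19.

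Over the 9 embryos, log2 CPM of Knl1 correlated with that of Cenpj at a Pearson r of 0.947, of Aspm at 0.944 and of Stil at 0.914. Cep135 was most like Cep63 among the members, with r = 0.710, and unlike Knl1 (0.302). The member most like Cdk5rap2 was Stil (0.747), that most like Mcph1 was Cep63 (0.524) and that most like Cep152 was Aspm (0.772). Wdr62 had a negative r with each of the other 9 members, from -0.36 with Cep152 to -0.82 with Aspm. All of these coefficients share the same 9 libraries and the differences between the dcKO embryos, and they are a description only.

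The wider machinery was read from lists of partner genes, in which edgeR on all 9 embryos gave 0 calls in every list and comparison. The counts below stand beside those of all genes tested. At an unadjusted p under 0.05 these were 15.3% higher and 11.7% lower in cKO. In dcKO 29.2% passed in either direction, with 11.2% lower. DESeq2 called 9.60% higher and 7.07% lower in cKO and 10.3% higher and 7.40% lower in dcKO. Without dcKO replicate 2, edgeR called 11.9% of all genes higher and 6.04% lower in dcKO, and without dcKO replicate 3 it called 25.3% higher and 23.6% lower. Among 16 centriole assembly partners in cKO, 6 were higher and 1 lower at an unadjusted p under 0.05, DESeq2 called 4 higher and 0 lower, and the median log2 fold change was 0.14. The genes with the smallest p were Spice1, a centriole duplication factor (1.32, DESeq2 adjusted p = 0.0014), Rttn, which completes the centriole wall (0.80, 0.010), Cep44 (0.81, 0.0084) and Poc5, a protein of the inner centriole (0.60, 0.0069). In dcKO these stood at 1.47, 0.91, 0.89 and 0.50, and DESeq2 again called 4 higher and 0 lower, with a list median of 0.46. With dcKO replicate 2 left out, edgeR called 4 higher and 0 lower in dcKO and the median was 0.19, and with replicate 3 left out these were 9, 3 and 0.53. Plk4, the kinase that starts duplication, and Sass6, the cartwheel protein, were at 0.02 and 0.20 in cKO (edgeR adjusted p = 0.964 and 0.739).

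Among 18 genes of the pericentriolar material and spindle pole, 1 was higher and 1 lower in cKO at an unadjusted p under 0.05, DESeq2 called 0 higher and 1 lower, and the list median was 0.09. Pcnt, the scaffold that holds CDK5RAP2 at the centrosome, was at -0.70 in cKO (DESeq2 adjusted p = 0.0371) and at -0.60 in dcKO (0.0639). Katna1, the katanin severing subunit that acts with ASPM, was at 0.66 (0.0558). Numa1, the spindle pole tether, was at -0.60 (0.159), and Tubgcp6, of the γ-tubulin ring complex, at -0.53 (0.164). In dcKO, 1 was higher and 3 were lower at an unadjusted p under 0.05, DESeq2 called 1 higher and 1 lower, and the median was 0.20. When dcKO replicate 2 was left out, edgeR called 1 higher and 0 lower and the median was 0.12, and without replicate 3 it called 7 higher and 6 lower with a median of 0.15.

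The partners of Knl1 are the outer kinetochore and the checkpoint proteins that dock there. Among 14 of them 3 were higher and 0 lower in cKO at an unadjusted p under 0.05, DESeq2 called 0, and the median was 0.02. Dsn1, of the MIS12 complex, was at 0.48 (DESeq2 adjusted p = 0.0743), Ndc80 and Nuf2, partners in the microtubule-binding NDC80 complex, at 0.53 (0.118) and 0.52 (0.121), and Spc24, of the same complex, at -0.52 (0.159). In dcKO 4 were higher and 0 lower at an unadjusted p under 0.05, DESeq2 called 3 higher and 0 lower, and the median was 0.38, close to that of the 10 members. edgeR without dcKO replicate 2 called 2 higher and 0 lower in dcKO, with a median of 0.17, and without replicate 3 it called 8 higher and 3 lower, with a median of 0.59.

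Other genes in which mutations cause microcephaly went in both directions. Among 18 of them 4 were higher and 4 lower in cKO at an unadjusted p under 0.05, and DESeq2 called 3 higher and 4 lower, with a list median of -0.33. Nup37, of the nuclear pore, was at 0.94 (DESeq2 adjusted p = 0.0014). Cit, the citron kinase of cytokinesis, was at -1.28 (0.0069), Mfsd2a, the transporter of lysophosphatidylcholine lipids, at -1.40 (0.0094) and Phc1, a Polycomb protein, at -0.66 (0.0214). In dcKO 7 were higher and 3 lower at an unadjusted p under 0.05, DESeq2 called 2 higher and 3 lower, and the median was -0.33. Nup37 (0.95), Cit (-1.28), Mfsd2a (-1.42) and Phc1 (-0.68) had nearly the values of cKO in this comparison, which uses the same control embryos. In edgeR's fit without dcKO replicate 2, 2 were called higher and 2 lower and the median was -0.34, and in its fit without replicate 3 these were 6, 7 and -0.25.

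Of 5 genes of mitotic surveillance, 3 were higher in cKO at an unadjusted p under 0.05 and DESeq2 called 1. That gene was Cdkn1a, the p21 cell cycle inhibitor and p53 target, at 2.46 (edgeR adjusted p = 0.0509, DESeq2 adjusted p = 2.49e-07). Usp28 was at 0.54 (DESeq2 adjusted p = 0.132), Trp53bp1 at 0.42 (0.123) and Mdm2, which marks p53 for degradation, at -0.39 (0.374). In dcKO 1 was higher, Usp28, and 1 lower, the floxed Trp53 itself (-2.27), at an unadjusted p under 0.05. DESeq2 called 0 of the other 4 and gave no p for Trp53 in any comparison. Over all 9 embryos, Cdkn1a was at 0.21 in dcKO (DESeq2 adjusted p = 0.783), Usp28 at 0.59 (0.0972) and Trp53bp1 at 0.28 (0.358). Without dcKO replicate 2, edgeR called 0 higher and 1 lower, again Trp53, and without replicate 3 it called 1 higher and 1 lower. Between dcKO and cKO, over all 9 embryos, the difference of Cdkn1a was -2.25 (edgeR adjusted p = 0.319, DESeq2 adjusted p = 1.05e-05), whereas those of the 10 members were between -0.20 and 0.67.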

How the data were processed

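Cortical tissue of 9 single E12.5 mouse embryos was sequenced as stranded poly(A) RNA. The deposited values are raw gene counts, which the authors made with featureCounts from reads trimmed with Cutadapt and aligned to mm39 with STAR. The tool versions and the strand setting of the counting are not given in the sources used here. Labels gave the genotype and replicate of each embryo, and 0 columns of per-sample values were left unused. Of 57010 genes, 30138 had no read in any embryo and 13680 had more than 10 reads in every embryo and were tested.

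The counts were fitted in R 4.3.3 with edgeR 4.0.16 (TMM factors, quasi-likelihood test, one model of all 9 embryos without covariates), and p-values were adjusted over all genes tested by Benjamini-Hochberg at a threshold of 0.05. DESeq2 1.42.0, named by the study, and limma 3.58.1 voom with quality weights were run as alternatives, as were RLE and upper-quartile factors, no filter, filterByExpr, fits of only the 6 embryos of a comparison, fits leaving out 1 embryo at a time, the replicate block, and a GC correction by loess (span 0.3, transcript GC known for 99.1% of tested genes). DESeq2 with the replicate block and DESeq2 on the 6 embryos compared were added after seeing the data. For single genes an exact permutation test, two-sided, was added. The scripts were tested on simulated data. CPM are counts per library size scaled by TMM factors, with a prior count of 0.5 on the log2 scale. Tables were made with Python 3.11.15, NumPy 2.4.6 and pandas 2.3.3.

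Coordinates, exon lengths, coding sequences and overlaps came from GENCODE M21 on GRCm38, where unversioned identifiers matched 52081 genes, since no mm39 annotation was used here. Reads of overlapping genes could be split or shared where the counting ignored strand. The members, lists and tests were chosen with earlier results of these data known. The text names all 10 members, Cnot3 and Trp53, per list up to 4 genes with the smallest edgeR p in cKO, the gene and the member most like each member over the 9 embryos (for Aspm the gene is not reported here, nor are the sums of 1 marker list), and 5 genes most like the members' mean. Plk4, Sass6 and the genes listed as markers were named after their values were seen.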

Additional observations from a re-analysis of the deposited data

How the results depend on the processing

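The number of members called in cKO was 0 with edgeR on all 9 embryos and 2 with DESeq2, 3 with limma voom, 3 with edgeR and 3 with DESeq2 on only the 6 embryos compared, while all genes called numbered 2, 2280, 7509, 6654 and 6908. In dcKO it was 0 with edgeR, 1 with DESeq2, 5 with limma voom, 1 with DESeq2 under the replicate block and 0 with DESeq2 on only the 6 embryos, with 0, 2426, 7210, 1479 and 804 of all genes. The cause was not tested. Upper-quartile factors called 603 of all genes in cKO and no filter 985, without a member, and upper-quartile factors shifted the median of all genes in cKO from 0.01 to 0.12. Members with an unadjusted p under 0.05 in cKO were 1 with no filter, 1 with the GC correction and 1 with both block and GC correction, in place of 2. In dcKO they were 2 with RLE factors, upper-quartile factors, DESeq2, filterByExpr and DESeq2 with the block, 3 with no filter and 6 with limma voom, in place of 1. Between dcKO and cKO they were 3 with limma voom, 1 with no filter and 1 with block and GC correction, in place of 0.

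Replicate numbers did not pair the embryos. Over 9 same-numbered pairs the deviations from the genotype means had a mean r of -0.17, with 1 pair over 0.1, beside 0.08 in the other pairs. The replicate block in edgeR called 0 members and 0 genes in each comparison. With DESeq2 the replicate block called 1415 genes in cKO and 0 members.

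The GC correction moved the dcKO median to -0.0023, and to -0.0039 with the replicate block. The cKO median went from 0.074 to -0.098, or -0.099 with the block, and ranged from -0.00076 to 0.19 with 1 embryo left out. In cKO it reversed Aspm to -0.14, Mcph1 to -0.0032, Cdk5rap2 to -0.055, Cenpj to -0.21, Stil to -0.16, Cep152 to -0.016 and Knl1 to -0.19, and together with the block to -0.14, -0.015, -0.053, -0.21, -0.16, -0.042 and -0.19. In dcKO it reversed Cdk5rap2 to -0.022, Stil to -0.053 and Cep63 to -0.13, with the block to -0.020, -0.048 and -0.15, and between dcKO and cKO Cdk5rap2 to 0.032, or 0.033 with the block. Without a filter Cenpj, Cep152 and Knl1 were at -0.033, -0.011 and -0.033 in cKO and Cdk5rap2 at -0.043 in dcKO, and with filterByExpr at -0.034, -0.0092, -0.033 and -0.028. limma voom gave Mcph1 0.19 in dcKO and Cdk5rap2 0.014 between dcKO and cKO, and DESeq2 on the 6 embryos gave Cdk5rap2 0.0064 there.

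Some embryos share a number in their codes. In the pair of Ctrl replicate 1 and cKO replicate 2, Cdk5rap2, Cenpj, Stil and Knl1 were at -0.082, -0.16, -0.13 and -0.37 in cKO. In the pair of Ctrl replicate 3 and dcKO replicate 3, Aspm, Cdk5rap2, Wdr62, Cenpj, Stil, Cep152 and Knl1 were at -0.32, -0.14, 0.17, -0.39, -0.55, -0.035 and -0.32, and Cep135 was at 0.66. What this number stands for is not given.

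With each embryo left out in turn, members called ranged from 0 to 2 in cKO, 0 to 6 in dcKO and 0 to 4 between dcKO and cKO, and those with an unadjusted p under 0.05 from 1 to 3, 1 to 7 and 0 to 5, the highest each time without dcKO replicate 3. The dcKO median ranged from 0.079 without dcKO replicate 2 to 0.56 without dcKO replicate 3. In cKO, Cdk5rap2 ranged from -0.011 to 0.10, Cenpj from -0.038 to 0.12, Cep152 from -0.092 to 0.18, Knl1 from -0.083 to 0.14, Mcph1 from -0.013 to 0.21 and Stil from -0.0065 to 0.23. In dcKO, Cdk5rap2 ranged from -0.018 to 0.12, Mcph1 from -0.20 to 0.064 and Cenpj from -0.0066 to 0.79. Between dcKO and cKO, Cdk5rap2 ranged from -0.046 to 0.058, Wdr62 from -0.68 to 0.031, Cep135 from -0.077 to 0.24, Cenpj from -0.030 to 0.77 and Stil from -0.011 to 0.49. Cep135 and Cep63 stayed above 0 and Wdr62 below 0 in cKO under every alternative run. With 3 embryos a group, differences of the size of the standard errors given could not be told from the spread between embryos.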

Other observations

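By Pearson's r of log2 CPM over the 9 embryos, the gene most like a member, among all genes tested, was Esco2 for Knl1 (0.993), Klc2 for Wdr62 (0.995), Eif4a2 for Cep135 (0.993), Gm2026 for Cenpj (0.988), Gmps for Stil (0.983), Thyn1 for Cep63 (0.980), C2cd3 for Cdk5rap2 (0.942), Lin52 for Cep152 (0.935) and Mbd2 for Mcph1 (0.908). Esco2, an acetyltransferase of sister chromatid cohesion, and Eif4a2, a translation initiation helicase, are of different families than the members they resembled. C2cd3, the gene most like Cdk5rap2, encodes a protein of centriole ends. The genes most like the mean of the 10 standardized members were Usp34 (0.994), Mrps36 (0.987), Chic2 (0.983), Ckap5 (0.982) and Fignl1 (0.979), of which Ckap5, a microtubule polymerase of spindle poles, also belongs to the spindle pole list. These coefficients are the highest of a search over all genes tested and rest on the same 9 libraries, in which dcKO replicates 1 and 2 lie apart from the rest.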
